A study of Mus musculus with 6 samples.

Results

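Arg1-high macrophages are macrophages of mouse colon tumours that carry abundant messenger RNA for arginase 1. They were selected on measured values, by the unique molecular identifiers (UMIs, 1 per captured RNA molecule) of each cell barcode. A member had at least 200 genes and at most 10% mitochondrial UMIs, at least 3 UMIs summed over the macrophage genes Csf1r, Adgre1, C1qa, C1qb and C1qc, and at least 5 UMIs of Arg1. It also had fewer than 2 UMIs of the monocyte gene Ly6c2, of the dendritic cell gene Cd209a and of the summed dendritic cell genes Xcr1 and Clec9a, and none of Siglech, Cd3d, Cd3e, Cd3g or Cd79a. This rule found 1526 members among 33862 filtered barcodes, 4.51%, of 34607 barcodes in all. Without the Arg1 condition the gate held 4040 macrophages, of which the members were 37.8%.

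Arginase 1 splits arginine into ornithine and urea, and ornithine feeds the synthesis of polyamines and proline. The nitric oxide synthase Nos2 uses the same substrate, and arginine depletion by myeloid cells is known to restrain T cells in tumours. Spp1 encodes osteopontin, a secreted matrix protein, and Hmox1 encodes haem oxygenase 1, which degrades haem. Arg1 and Spp1 are both known to be expressed by macrophages of oxygen-poor tumour regions.

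Single-cell 3′ RNA libraries had been made from living CD45+ EpCAM- cells (immune cells, without epithelium) sorted from colon tumours. SOX17KO tumours, labelled for a knockout of the transcription factor gene Sox17, were set against Control tumours at 1 week, at 2 weeks and in a pair with no time in its labels, with 1 library per genotype and collection. Per the series description, each condition pooled the tumours of 5 mice, so a library is a pool and not an animal. No p-value here measures the spread between animals. The p-values for expression rest on how far differences within pairs of libraries or populations disagree, and on variance shared across genes. The knockout allele, the promoter that drives any Cre, the strain and the age are not given in the sources used here, and neither are any alleles or treatments shared by both genotypes.

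The 6 libraries held between 18281322 and 52150180 UMIs. Sox17 itself had 4, 20 and 3 UMIs in the SOX17KO libraries (untimed, 1 week, 2 weeks) and 7, 9 and 10 UMIs in the Control libraries, and none in a member, so it checks nothing in these sorted cells. Among macrophage genes that the gate did not use, Cd68, Fcgr1 and Mertk were found in the members of each timed library, at 241 to 298, 276 to 379 and 39.3 to 68.8 CPM. The monocyte genes Ccr2 (723 to 1053 CPM) and Plac8 (1682 to 2940 CPM) were found there too. Between 4 and 13 cell barcodes were shared by each pair of libraries, and 1 member barcode was shared, between both 1-week libraries. No barcode was removed as a doublet, and 91 members were among the barcodes with the highest doublet scores. Of the 1526 members, 610 held at least 2 UMIs of marker genes of other lineages. These were markers of T cells, B and plasma cells, neutrophils, fibroblasts and endothelium, or epithelium. Such cells were left out only in an alternative. A count of 0 or a share carries an exact binomial interval, which covers counting error only.

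Members were found almost entirely in the timed collections. At 1 week the SOX17KO library held 774 and the Control library 502. At 2 weeks there were 107 members in the SOX17KO library and 141 in the Control library. The untimed pair held none in the SOX17KO library and 2 in the Control library, where the gate found 58 macrophages in SOX17KO and 61 in Control, so the untimed libraries enter no comparison of expression.

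Among gated macrophages at 1 week, members made up 42.6% of 1819 cells in SOX17KO tumours (95% Clopper-Pearson interval 40.3 to 44.9) and 37.2% of 1351 cells in Control tumours (34.6 to 39.8). At 2 weeks they made up 28.6% of 374 cells in SOX17KO tumours (24.1 to 33.5) and 37.4% of 377 cells in Control tumours (32.5 to 42.5). In the untimed pair they were 0 of 58 cells in SOX17KO, which allows a share of up to 6.16%, and 3.28% in Control. The genotype difference therefore had opposite signs at 1 and at 2 weeks. The mean difference in log2 odds, SOX17KO minus Control, was -0.85 over the 3 collections (2-sided exact sign-flip permutation test, p = 0.5, where the smallest p this design allows is 0.25). That mean rests on the untimed pair, which alone gave -2.30, and it was -0.12 without it. As a share of all filtered barcodes, members were 10.6% in SOX17KO and 9.14% in Control at 1 week, and 3.55% in SOX17KO and 2.95% in Control at 2 weeks. That difference averaged -0.57 on the log2 odds scale with the untimed pair (exact sign-flip permutation test, p = 1). It was 0.26 without the untimed pair. Cells were also thinned to 5000 UMIs each before gating, which left out every cell with fewer. The gate then found 196 macrophages in SOX17KO and 114 in Control at 2 weeks, so this setting covers deeper cells only. In it the mean difference was 0.21 among macrophages and 0.71 among barcodes. The untimed pair then had no member in either genotype, so its term comes from the added 0.5 alone, and the differences at 1 and at 2 weeks kept their signs (0.20 and -0.43 among macrophages, 0.23 and 1.00 among barcodes).

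**Figure D1:**
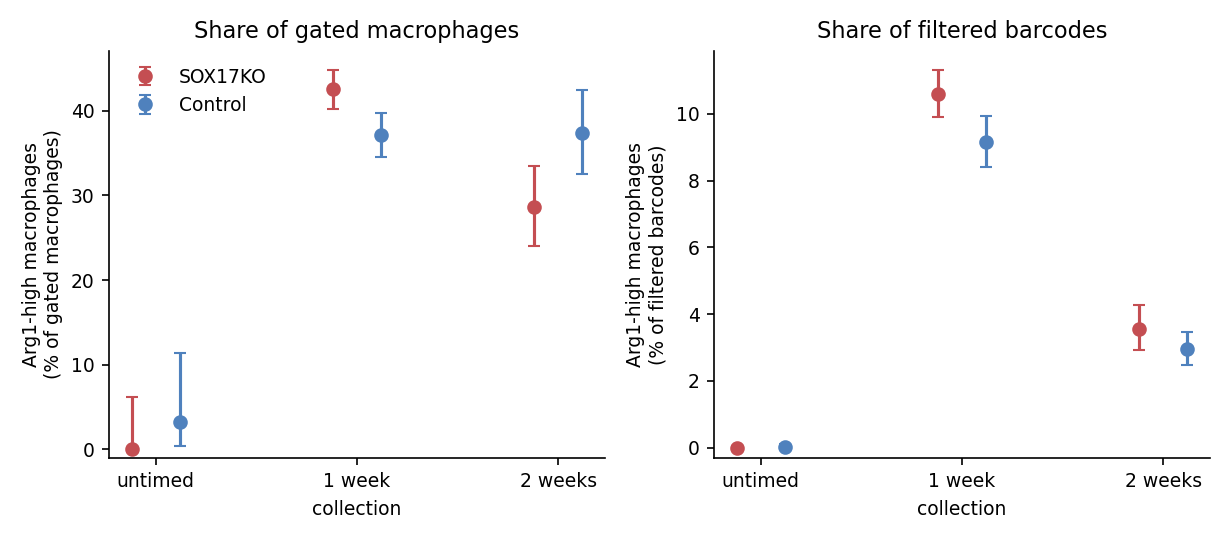
Arg1-high macrophages in each library as a percentage of gated macrophages (left panel) and of filtered barcodes (right panel), with exact 95% binomial intervals, SOX17KO in red to the left of Control in blue. At 1 week the SOX17KO library is higher on both scales, and at 2 weeks it is lower among macrophages (28.6% against 37.4%) and slightly higher among barcodes (3.55% against 2.95%).

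Arg1 (chr10:24915221-24927484, minus strand, mm10) set the membership, so its level is a description. The median member held 33 Arg1 UMIs in SOX17KO and 24 in Control at 1 week, and 21 in SOX17KO and 17 in Control at 2 weeks. The highest member held 268, 378, 112 and 127 UMIs in the same order of libraries (SOX17KO and Control at 1 week, SOX17KO and Control at 2 weeks). Arg1 was thus spread over a wide range within the members and was not gathered just above the threshold. The members' summed counts held 5699, 4745, 5129 and 6063 Arg1 counts per 1000000 UMIs (CPM). T cells of the same libraries (118, 77, 709 and 2043 barcodes), which should lack Arg1, held 59.4, 70.8, 13.8 and 7.25 CPM.

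The threshold split a graded range. Just inside it, with 5 Arg1 UMIs, stood 29, 20, 10 and 10 cells in the 4 timed libraries, and just outside, with 4 UMIs, stood 36, 27, 12 and 8. Spp1 was 266, 402, 285 and 222 CPM just inside and 15.5, 56.9, 341 and 0 CPM just outside. Hmox1 was 976, 607, 6559 and 98.8 CPM just inside and 617, 278, 221 and 89.0 CPM just outside. In the timed libraries the members were also deeper at 1 week than gated macrophages with fewer than 5 Arg1 UMIs, called Arg1-low here: the median was 8389 against 5787 UMIs in SOX17KO and 6729.5 against 5343 in Control. At 2 weeks the medians were 4771 against 4821 UMIs in SOX17KO and 3269 against 3446.5 in Control. The members of the 4 timed libraries held 6757501, 3658381, 587274 and 560470 UMIs in all, so the 2-week sums are the less precise ones.

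Spp1 and Hmox1 were named as markers of these cells with earlier results of the same data known, so their levels are also a description. Spp1 (chr5:104435118-104441050, plus strand) had 1204, 1747, 262 and 623 CPM in members and 120, 91.9, 52.1 and 123 CPM in Arg1-low macrophages, in the order SOX17KO and Control at 1 week, SOX17KO and Control at 2 weeks. At least 2 Spp1 UMIs were found in 30, 27.1, 18.7 and 22% of members and in 4.78, 5.77, 3.0 and 4.24% of Arg1-low cells. Spp1 was therefore a minority feature of Arg1-high macrophages that was still more frequent there in each library. A single member carried 48.4% of the Spp1 UMIs of the Control members at 1 week.

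Hmox1 (chr8:75093621-75100589, plus strand) had 905, 830, 497 and 161 CPM in members and 364, 369, 117 and 288 CPM in Arg1-low macrophages. In the Control library at 2 weeks Hmox1 was the lower in members, and in the SOX17KO library at 2 weeks 1 member held 61.3% of the members' Hmox1 UMIs. Hmox1 therefore did not mark the 2-week Control members.

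Among genes outside the gate, Arg1-high macrophages differed from Arg1-low macrophages most completely in a list of hypoxia and glycolysis genes. In edgeR's quasi-likelihood fit on counts summed per library, with library as a term, 804 of 9431 genes passed an adjusted p of 0.05, which is 8.53%. Of these, 491 were higher in members (5.21% of the genes tested) and 313 lower (3.32%). The cells were split by Arg1, whose own gene and the other gate genes were not tested. Of all genes tested, 29.6% had the same sign in each of the 4 libraries. The genes described below as without overlap were picked from called ones. Having no overlap is a stricter condition than having the same sign, and its share over all genes is not given here. Of the hypoxia and glycolysis list, 27 of 28 tested genes were higher and 0 lower, with a median log2 fold change of 1.16 against 0.00 over all genes tested. The log2 fold changes ran from 0.22 for Pfkp, a phosphofructokinase and the only tested list member that missed the threshold, to 2.88 for P4ha2. With cells thinned to 3000 UMIs, 703 genes passed, and with Arg1-low cells that had no Arg1 UMI at all, 885. Without the 1-week Control library 485 genes passed, and without the 1-week SOX17KO library 488.

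The promoters of 4 of these genes are shown, from 250 bases before each gene's RefSeq start to 50 after it, because their levels carry the hypoxia result below. The capitals mark ACGTG or GCGTG on either strand (CACGT and CACGC on the printed strand, and overlapping matches merge), the letters of the known hypoxia response element core. The sequences are RefSeq's for GRCm38.p6 and are printed 5′ to 3′ along the gene: Bnip3 at chr7:138909457-138909756 (minus strand), Egln3 at chr12:54203825-54204124 (minus strand), P4ha2 at chr11:54100674-54100973 (plus strand, where this start lies downstream of the gene's first base in GENCODE) and Pgk1 at chrX:106186850-106187149 (plus strand).
Bnip3: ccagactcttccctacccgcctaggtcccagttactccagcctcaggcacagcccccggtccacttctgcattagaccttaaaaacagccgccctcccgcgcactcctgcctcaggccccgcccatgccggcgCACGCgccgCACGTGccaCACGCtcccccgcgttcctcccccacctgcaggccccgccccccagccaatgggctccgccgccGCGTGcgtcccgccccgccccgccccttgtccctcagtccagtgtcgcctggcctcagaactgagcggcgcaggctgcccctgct
Egln3: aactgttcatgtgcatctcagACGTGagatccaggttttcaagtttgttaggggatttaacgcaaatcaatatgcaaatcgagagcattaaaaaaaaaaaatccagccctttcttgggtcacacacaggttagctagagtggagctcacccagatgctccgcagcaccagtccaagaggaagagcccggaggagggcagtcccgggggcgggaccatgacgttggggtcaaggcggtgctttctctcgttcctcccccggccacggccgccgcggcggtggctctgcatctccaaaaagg
P4ha2: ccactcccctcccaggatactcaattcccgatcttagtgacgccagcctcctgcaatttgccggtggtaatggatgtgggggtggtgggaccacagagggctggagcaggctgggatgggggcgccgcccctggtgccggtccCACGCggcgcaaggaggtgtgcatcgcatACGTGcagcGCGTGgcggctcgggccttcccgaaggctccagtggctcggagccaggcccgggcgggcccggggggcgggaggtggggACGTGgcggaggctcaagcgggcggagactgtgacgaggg
Pgk1: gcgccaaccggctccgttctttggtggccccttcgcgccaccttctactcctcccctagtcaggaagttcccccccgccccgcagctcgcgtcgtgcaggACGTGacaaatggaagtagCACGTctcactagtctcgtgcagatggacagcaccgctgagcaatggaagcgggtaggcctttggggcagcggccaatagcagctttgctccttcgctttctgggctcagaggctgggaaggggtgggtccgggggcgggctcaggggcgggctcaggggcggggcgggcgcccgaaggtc
The Bnip3 window held 5 matches, P4ha2 4, Pgk1 2 and Egln3 1. Of the 28 tested list genes, 26 had a promoter entry and 24 of these held the motif in at least 1 window, 92.3%. Counted the same way, it was 69.0% of the 7553 tested genes with an entry and 46.7% of all 27025 genes with one. The list was drawn up as hypoxia and glycolysis genes, so this share describes the list and tests nothing about these cells. A match describes letters and not a bound site, and whether a factor bound there was not measured.

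Bnip3, a mitochondrial protein of mitophagy induced by low oxygen, had 228, 224, 318 and 268 CPM in members and 63.6, 51.5, 81.4 and 69.3 CPM in Arg1-low macrophages. Every member sum was above every Arg1-low sum, and the log2 fold change was 2.05 ± 0.09 (SE, 4 libraries, edgeR adjusted p = 1.9e-06). Hilpda, a lipid droplet protein that inhibits lipolysis, had 419, 334, 370 and 366 CPM in members and 87.7, 99.5, 69.0 and 113 CPM in Arg1-low macrophages, again without overlap (2.11 ± 0.13, edgeR adjusted p = 5.1e-06). Egln3, an oxygen sensor that hydroxylates hypoxia-inducible factors, had 105, 66.1, 274 and 241 CPM against 34.3, 16.6, 58.7 and 88.0 CPM. Its 1-week Control member sum lay below the 2-week Control Arg1-low sum, but within each library it was higher in members (1.89 ± 0.13, edgeR adjusted p = 1.1e-05). The collagen prolyl hydroxylase gene P4ha2 was low throughout, at 17.0, 14.8, 32.4 and 10.7 CPM in members and 3.91, 1.23, 2.20 and 1.03 CPM in Arg1-low macrophages, with a log2 fold change of 2.88 ± 0.32.

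The glycolytic enzyme gene Pgk1 had 983, 950, 1458 and 1386 CPM in members and 373, 372, 421 and 579 CPM in Arg1-low macrophages. Ldha, lactate dehydrogenase A, had 848, 812, 780 and 885 CPM in members and 410, 402, 393 and 437 CPM in Arg1-low macrophages, a difference of about the same size in each of the 4 libraries (log2 fold change 1.11 ± 0.07). The angiogenic factor Vegfa had 280, 233, 461 and 498 CPM against 76.4, 74.3, 247 and 215 CPM (1.53 ± 0.14). The glucose transporter gene Slc2a1 was higher in members in 3 of 4 libraries, at 180, 229, 264 and 159 CPM against 99.2, 101, 92.5 and 185 CPM, and the 2-week Control library went the other way (0.97 ± 0.20, edgeR adjusted p = 0.010).

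**Figure D2:**
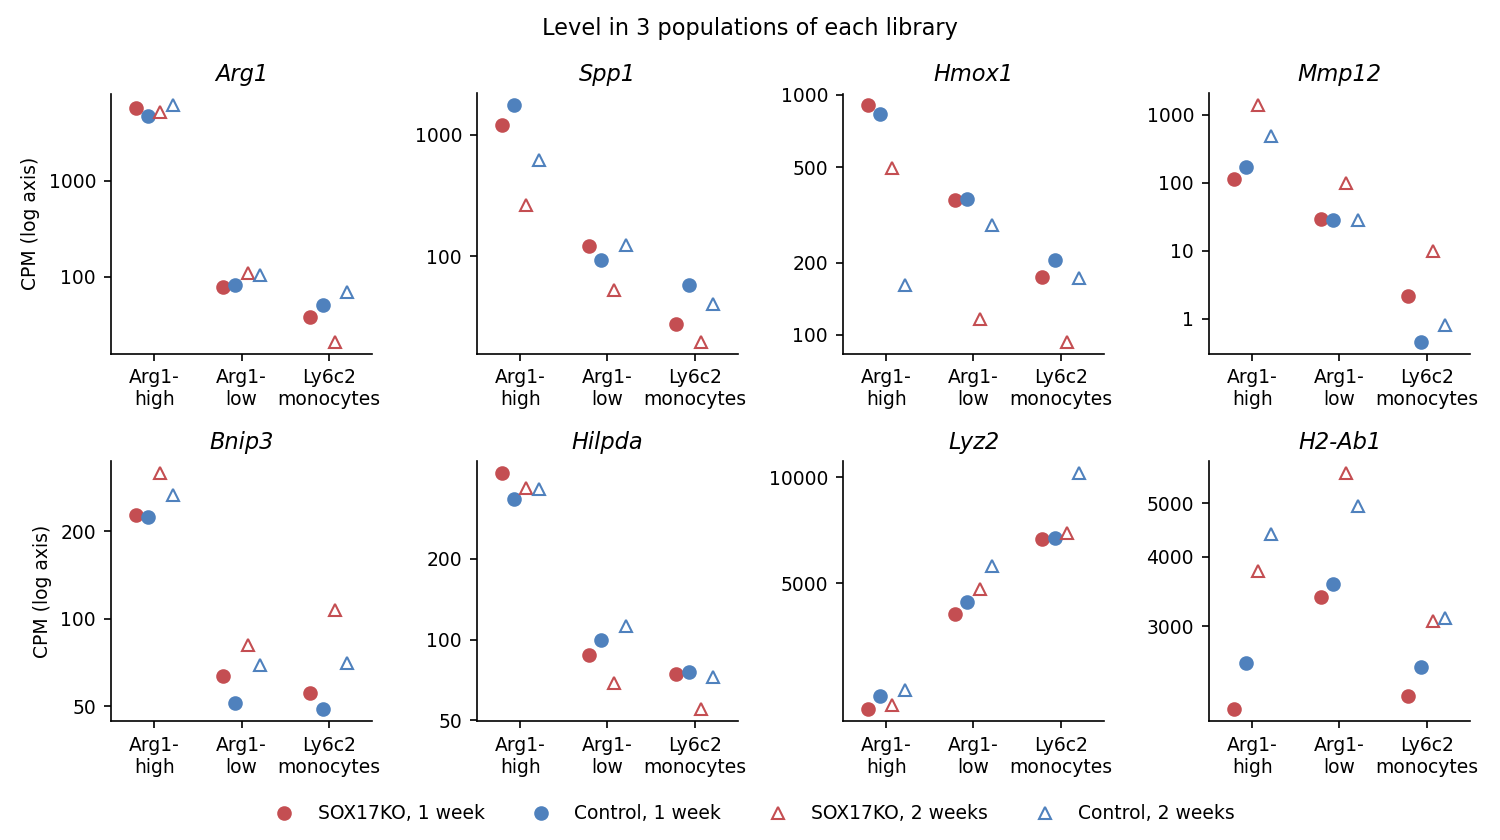
CPM on log axes of Arg1, Spp1, Hmox1, Mmp12, Bnip3, Hilpda, Lyz2 and H2-Ab1 in Arg1-high macrophages, Arg1-low macrophages and Ly6c2 monocytes, 1 point per library, SOX17KO red and Control blue, filled circles at 1 week and open triangles at 2 weeks. Bnip3 and Hilpda stand above both other populations in each library, Lyz2 stands below both, and Hmox1 of the 2-week Control members (161 CPM) lies below the 288 CPM of Arg1-low cells.

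Of 16 tested arginine and polyamine genes, 5 were higher in members and 1 lower, with a list median of 0.11. Slc7a2, the cationic amino acid transporter that brings in arginine, had 213, 294, 628 and 305 CPM in members and 71.6, 71.6, 66.0 and 66.2 CPM in Arg1-low macrophages (log2 fold change 2.27 ± 0.20, edgeR adjusted p = 6.1e-05). Nos2, which competes with arginase for arginine, was also higher, at 101, 223, 690 and 285 CPM against 72.9, 50.3, 109 and 42.4 CPM (1.95 ± 0.30). Arg1 messenger RNA and Nos2 messenger RNA were thus not found in opposite populations under this split. The polyamine genes Odc1, Sms and Smox, for ornithine decarboxylase, spermine synthase and spermine oxidase, were higher by 0.45, 0.60 and 0.52 on the log2 scale. Sat1, the acetyltransferase that starts polyamine breakdown, was lower by a log2 fold change of -0.47. Arg2, the mitochondrial arginase, had a log2 fold change of 0.05 ± 0.11 (edgeR adjusted p = 0.88).

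Of 24 tested matrix and tissue remodelling genes, 10 were higher in members, the marker Spp1 among them, and 1 was lower. Fibronectin, Fn1, had 2105, 1542, 1836 and 1790 CPM in members and 504, 511, 926 and 701 CPM in Arg1-low macrophages (log2 fold change 1.60 ± 0.14, edgeR adjusted p = 4.2e-05). Its member and Arg1-low sums did not overlap. Mmp12, macrophage elastase, had 113, 168, 1364 and 487 CPM in members and 29.2, 28.1, 99.1 and 27.9 CPM in Arg1-low macrophages (3.05 ± 0.27), but only 5.94 to 17.8% of members held a UMI of it and a single member carried up to 43.6% of a library's member UMIs. Fibroblast and endothelial marker genes, none called of 5 tested, summed to 404, 570, 52.8 and 42.8 CPM in members and 490, 118, 126 and 39.3 CPM in Arg1-low macrophages. They were higher in members in both Control libraries and lower in both SOX17KO libraries, and their part in the matrix counts was not tested.

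Lipid-associated macrophage genes were higher for 12 of 20 and lower for 2, with a median of 0.62. Among them Trem2, a lipid receptor of phagocytes, had 209, 226, 242 and 287 CPM in members and 122, 144, 145 and 80.7 CPM in Arg1-low macrophages (1.00 ± 0.15), and the scavenger receptor Cd36 had 205, 238, 402 and 120 CPM against 146, 155, 167 and 54.9 CPM (0.88 ± 0.13). Phagocytic and pattern receptors were higher for 10 of 20 and lower for 1. The lysosomal protease gene Ctsl was separated without overlap, at 814, 624, 596 and 541 CPM in members against 228, 219, 205 and 140 CPM in Arg1-low macrophages (1.79 ± 0.09, edgeR adjusted p = 4.2e-06). Of 20 tested haem, iron and NRF2 genes, 8 were higher, the marker Hmox1 among them, and 0 lower.

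Of 26 chemokine and chemokine receptor genes, 13 were higher in members and 3 lower. Ccl24, which recruits eosinophils, had 3834, 3572, 793 and 1461 CPM in members and 1074, 1150, 117 and 200 CPM in Arg1-low macrophages (2.29 ± 0.18, edgeR adjusted p = 3.0e-05). Cxcl3, a neutrophil attractant, had 370, 231, 223 and 3.57 CPM in members and 45.9, 32.8, 11.7 and 1.03 CPM in Arg1-low macrophages (3.18 ± 0.18), and 1 member held 89.3% of its UMIs among SOX17KO members at 2 weeks. In the opposite direction Cxcl9, the interferon-induced T cell attractant, had 339, 521, 335 and 466 CPM against 1190, 883, 493 and 950 CPM (-0.98 ± 0.17, edgeR adjusted p = 0.0037). At least 2 Cxcl9 UMIs were found in 18.2, 32.3, 25.2 and 24.1% of members, against 36.7, 35.3, 23.6 and 33.5% of Arg1-low cells. With cells thinned to 2000 UMIs, a Cxcl9 UMI was found in 17.2, 28.1, 22.8 and 28% of members and in 4.63, 3.95, 1.45 and 1.41% of T cells, which should lack it (unthinned, 25.8, 38.0, 30.8 and 29.8% of members and 7.63, 5.19, 2.68 and 2.45% of T cells). The T cell sums held 252, 127, 57.8 and 63.0 CPM of Cxcl9. Of 24 inflammatory cytokine genes 9 were higher and 0 lower, among them Il1a, interleukin 1 alpha, at 249, 188, 85.1 and 50 CPM against 80.0, 65.9, 25.7 and 16.6 CPM (1.68 ± 0.10).

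MHC class II genes, for presenting antigen to CD4 T cells, were lower in members: 0 of 9 tested genes were higher and 5 lower, with a median of -0.39. H2-Ab1, a class II beta chain, had 2127, 2576, 3767 and 4393 CPM in members and 3393, 3575, 5668 and 4936 CPM in Arg1-low macrophages (-0.39 ± 0.07, edgeR adjusted p = 0.0069). Ciita, the master activator of class II genes, had 46.3, 50.6, 97.1 and 92.8 CPM against 115, 83.9, 145 and 140 CPM (-0.79 ± 0.13). Dendritic cell marker genes, 2 of 4 of them called lower, summed to 126, 156, 83.4 and 177 CPM in members and 196, 193, 166 and 238 CPM in Arg1-low macrophages, and their part in the class II difference was not tested. MHC class I presentation showed no such pattern, with 1 of 22 genes higher, 0 lower and a median of 0.00. The lysozyme gene Lyz2 was lower without overlap, at 2190, 2396, 2251 and 2478 CPM in members and 4099, 4421, 4833 and 5601 CPM in Arg1-low macrophages (-0.93 ± 0.06, edgeR adjusted p = 8.0e-06). The fractalkine receptor gene Cx3cr1 was lower by a log2 fold change of -1.23 ± 0.14 and the inhibitory receptor gene Cd300a by -1.02 ± 0.10.

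Of 21 genes for ligands and enzymes that regulate T cells, 3 were higher in members and 2 lower. Nt5e, the CD73 enzyme that makes adenosine, had 43.5, 39.4, 18.7 and 66.0 CPM in members and 9.62, 5.33, 4.40 and 5.17 CPM in Arg1-low macrophages (2.63 ± 0.20, edgeR adjusted p = 2.6e-05). Pdcd1lg2, the PD-1 ligand PD-L2, had 165, 304, 123 and 228 CPM against 127, 184, 57.2 and 126 CPM (0.78 ± 0.11). Cd274, the other PD-1 ligand, had 525, 694, 599 and 632 CPM against 588, 653, 456 and 643 CPM and did not pass (0.15 ± 0.09, edgeR adjusted p = 0.40). Interferon lists had few calls, with 0 higher and 3 lower of 25 interferon-gamma genes and 0 higher and 2 lower of 31 type I interferon genes. Genes of alternative activation and residency were mixed, with 5 higher and 3 lower of 20. Of the remaining lists, complement had 4 higher and 0 lower of 12, monocyte-derived genes 5 higher and 5 lower of 25, cell cycle 0 higher and 1 lower of 20, and immediate early and dissociation genes 2 higher and 4 lower of 24. Among markers of other cells, 1 of 3 T cell genes was higher, 1 of 8 neutrophil genes and 1 of 2 B and plasma cell genes were lower, and 0 of 4 NK cell genes and 0 of 1 epithelial gene passed. The mast cell and eosinophil list and the erythroid list had no gene that could be tested.

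**Figure D3:**
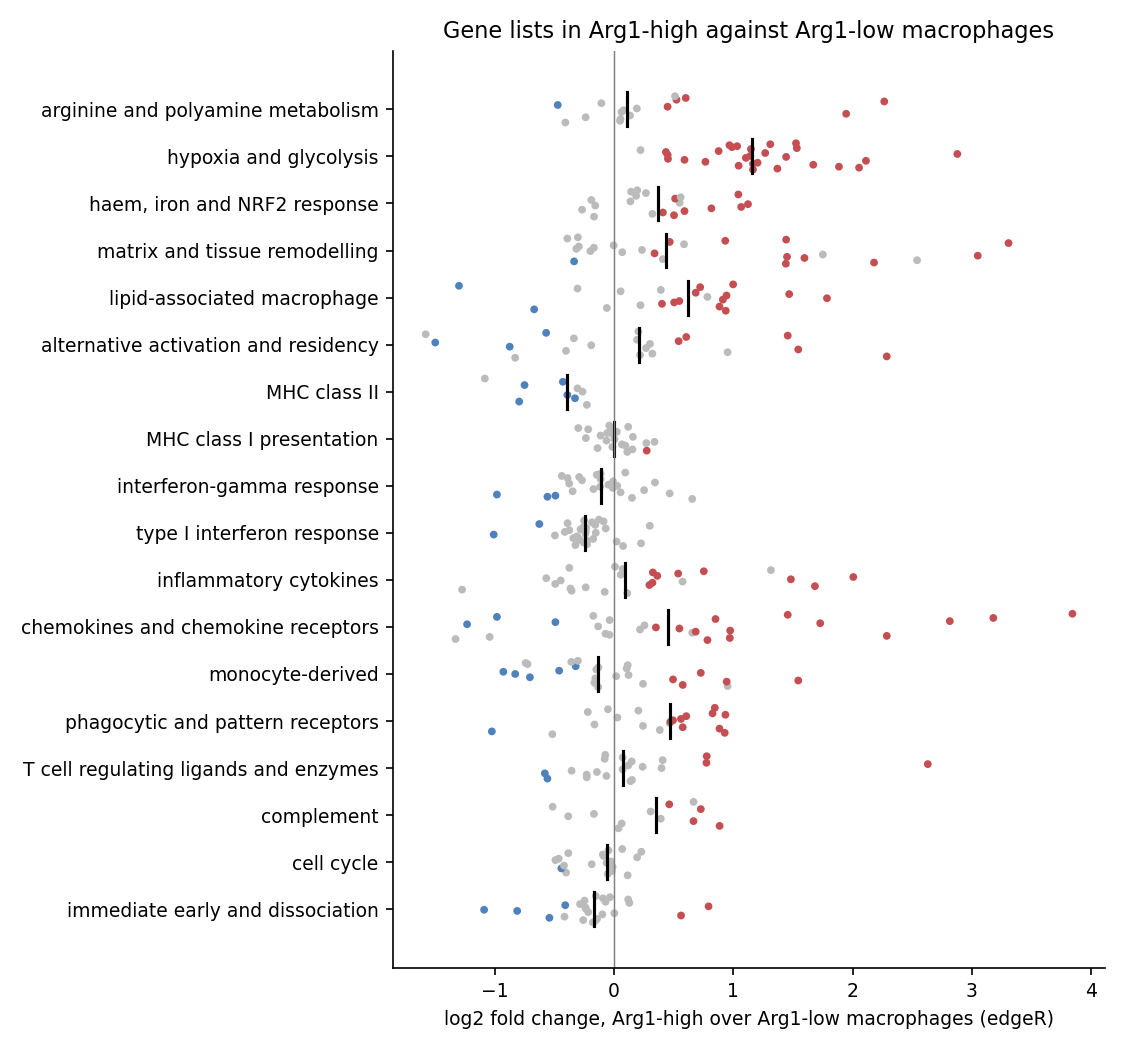
Log2 fold change of Arg1-high over Arg1-low macrophages for each tested gene of the lists, red where edgeR called it higher, blue where lower and grey where neither, with a black bar at the list median. The hypoxia and glycolysis list lies wholly above 0 (median 1.16) and the MHC class II list wholly below it (median -0.39).

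Within the members, Arg1 varied along with several of these genes. After thinning each member to 2000 UMIs, Spearman correlations with Arg1 across members were computed for 153 genes in each of the 4 timed libraries. These were genes of the lists, without the lists of other cells, that enough members held in each library. They are therefore no background of all genes. The correlations are a description over cells that share a library. Of these genes, 45 were above 0 in each library and 23 below 0, with a median of 0.015. The highest by median over libraries were Fn1 (0.17 to 0.49), Pgk1 (0.36 to 0.40), Hilpda (0.24 to 0.38) and F13a1, a clotting factor subunit (0.31 to 0.35). Lyz2 (-0.27 to -0.13) and H2-Ab1 (-0.20 to -0.14) were below 0 in each library.

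Ly6c2 monocytes, which pass the same gate except that they hold at least 2 Ly6c2 UMIs and fewer than 5 of Arg1, were the other comparison population. Of 9219 genes tested, 2026 passed (22%), 1048 higher in members (11.4%) and 978 lower (10.6%). Hypoxia and glycolysis genes were higher here too, 26 of 28 with 0 lower, and Bnip3 had a log2 fold change of 1.99 ± 0.11. The member sums are the same ones as against Arg1-low macrophages, and Ly6c2 monocytes with at least 5 Arg1 UMIs entered no comparison. The mannose receptor gene Mrc1 had 1183, 1124, 426 and 553 CPM in members and 358, 420, 161 and 204 CPM in monocytes (1.54 ± 0.09, edgeR adjusted p = 1.5e-06). Of 31 type I interferon genes, 0 were higher and 28 lower in members, with a median of -0.90 against 0.01 over all genes. Of 25 monocyte-derived genes, 13 were lower in members and 3 higher. The populations were split by the monocyte gene Ly6c2, and the part of that split in the interferon and monocyte-derived differences was not tested. Alternative activation genes were higher for 13 of 18 with 0 lower, and matrix genes for 18 of 24 with 3 lower. Fibroblast and endothelial genes were higher for 4 of 5, with sums of 404, 570, 52.8 and 42.8 CPM in members and 218, 81, 80.4 and 20.3 CPM in monocytes, and their part in the matrix counts was not tested. Without the 1-week Control library 1003 genes passed, without the 1-week SOX17KO library 1060, and without cells holding UMIs of other lineages 1330.

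At 2 weeks, Arg1-high macrophages were set against those at 1 week, and the chemokine list had 3 genes higher and 9 lower of 25 tested. With genotype as a term, 164 of 9227 genes passed edgeR's adjusted p of 0.05 (1.78%), 78 higher at 2 weeks (0.845%) and 86 lower (0.932%). Each time point had 1 library per genotype, and time, library and sort cannot be told apart. The fit has 1 residual degree of freedom among libraries, so its p-values draw largely on variance shared across genes. DESeq2 called 123, of which 91 were among the 164, and other scalings and filters called up to 612.

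Of 25 chemokine and chemokine receptor genes, 9 were lower and 3 higher at 2 weeks, with a median log2 fold change of -1.38 against -0.02 over all genes. Among the lower genes were the monocyte attractants Ccl2, Ccl7 and Ccl12. Ccl2 had 126 and 403 CPM at 2 weeks (SOX17KO and Control members) and 1684 and 1517 CPM at 1 week (-2.75 ± 0.38, edgeR adjusted p = 0.0099). It was detected in 20.6 and 29.8% of members at 2 weeks and in 77.8 and 78.1% at 1 week. Ccl7 had 32.4 and 155 CPM at 2 weeks and 1052 and 1045 CPM at 1 week (-3.64 ± 0.42), and Ccl12 had 51.1 and 83.9 CPM against 495 and 466 CPM (-2.85 ± 0.24). The 2-week and 1-week values of these genes did not overlap, but the genes were picked as called ones with the same sign in both genotypes. Of all tested genes, 61.8% had the same sign in both genotypes, which is a looser condition. The share of all genes without overlap is not given here. In T cells of the same libraries Ccl2 was 56.9 and 61.5 CPM at 2 weeks (709 and 2043 barcodes) and 95 and 568 CPM at 1 week (118 and 77 barcodes). Free RNA and doublets cannot be told apart in these barcodes. Pf4 had 782 and 64.2 CPM at 2 weeks and 2572 and 1611 CPM at 1 week (-2.92 ± 0.53, edgeR adjusted p = 0.032), and 1 member held 69.7% of its UMIs among SOX17KO members at 2 weeks. Ccl24 had 793 and 1461 CPM at 2 weeks and 3834 and 3572 CPM at 1 week (-1.78 ± 0.25). Cxcr4, the receptor for Cxcl12, was higher, at 342 and 407 CPM against 97.5 and 89.7 CPM (1.99 ± 0.18, edgeR adjusted p = 0.0020).

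Haem, iron and NRF2 response genes were lower for 5 of 20, the marker Hmox1 among them, and higher for 0. Hmox1, given here as a description of a marker, had 497 and 161 CPM at 2 weeks and 905 and 830 CPM at 1 week. Gclm, a subunit of the enzyme that starts glutathione synthesis, had 32.4 and 21.4 CPM at 2 weeks and 74.7 and 82.8 CPM at 1 week (-1.54 ± 0.27, edgeR adjusted p = 0.028), and the cystine transporter gene Slc7a11 had 148 and 67.8 CPM against 282 and 257 CPM (-1.37 ± 0.24). Of the arginine genes, Odc1 was lower at 2 weeks, 104 and 118 CPM against 273 and 256 CPM (-1.25 ± 0.19), and Ass1, which rebuilds arginine from citrulline, was higher, 83.4 and 103 CPM against 36.1 and 55.8 CPM (1.05 ± 0.20). The levels of these genes, which were named because they were called, were apart between the times in both genotypes.

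Of 31 type I interferon genes, 5 were lower at 2 weeks and 0 higher, with a median of -0.76. The ubiquitin-like protein gene Isg15 had 104 and 128 CPM at 2 weeks and 252 and 507 CPM at 1 week (-1.64 ± 0.21, edgeR adjusted p = 0.0073). Cxcl10, an interferon-induced chemokine, had 235 and 412 CPM against 608 and 1113 CPM (-1.40 ± 0.17). MHC class II genes were higher for 2 of 8 and lower for 0, and Cd74, the class II invariant chain, had 7979 and 9133 CPM at 2 weeks and 3963 and 5125 CPM at 1 week (0.92 ± 0.18, edgeR adjusted p = 0.040).

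Of 24 matrix genes, 2 were higher at 2 weeks and 5 lower, the marker Spp1 among the lower ones. The collagenase gene Mmp13 had 325 and 82.1 CPM at 2 weeks and 28.9 and 30.1 CPM at 1 week (2.66 ± 0.39, edgeR adjusted p = 0.014), and Mmp12 had 1364 and 487 CPM against 113 and 168 CPM (2.59 ± 0.41). The gelatinase gene Mmp9 was lower, at 3.41 and 0 CPM against 59.2 and 27.6 CPM (edgeR adjusted p = 0.0073). Outside that list, the collagen gene Col3a1 was lower, at 3.41 and 0 CPM against 83.9 and 185 CPM, where only 3.88 and 1.99% of the 1-week members held it and 1 member carried 49.6 and 71.7% of the UMIs. Fibroblast list genes were lower for 4 of 6 at 2 weeks and neutrophil genes for 3 of 7. The neutrophil gene S100a9 had no UMI in 2-week members and 258 and 207 CPM at 1 week, which is at least 50.4-fold lower in SOX17KO and at least 38.6-fold lower in Control against a floor of 3 counts per library. The neutrophil list summed to 88.5 and 92.8 CPM at 2 weeks and 692 and 548 CPM at 1 week, and the part of RNA from other cells in the differences between times was not tested.

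In the hypoxia list 2 of 28 genes were higher at 2 weeks and 0 lower. Egln3 had 274 and 241 CPM at 2 weeks and 105 and 66.1 CPM at 1 week (1.61 ± 0.19, edgeR adjusted p = 0.0048), and Vegfa had 461 and 498 CPM against 280 and 233 CPM (0.91 ± 0.18). Alternative activation genes were lower for 5 of 20 and higher for 1, with Mrc1 at 426 and 553 CPM at 2 weeks and 1183 and 1124 CPM at 1 week (-1.25 ± 0.19). Chil3, a chitinase-like protein of macrophages, was the higher one, at 957 and 685 CPM against 270 and 190 CPM (1.84 ± 0.17). Of 24 inflammatory genes 3 were lower and 0 higher, among them Il1a (-1.71 ± 0.20) and Tnf (-1.17 ± 0.19). The T cell regulating list had 0 calls of 21 and the cell cycle list 0 of 20, and 3 of 24 immediate early genes were higher, Atf3 among them. Of the other lists, lipid-associated genes had 2 higher and 1 lower of 20, interferon-gamma genes 1 higher and 2 lower of 25, monocyte-derived genes 1 higher and 4 lower of 25, phagocytic receptors 0 higher and 2 lower of 20, complement 0 higher and 1 lower of 12, and MHC class I presentation 0 calls of 22. The epithelial list had 1 tested gene, which was higher at 2 weeks, and summed to 61.3 and 64.2 CPM at 2 weeks and 21.6 and 23.8 CPM at 1 week.

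**Figure D4:**
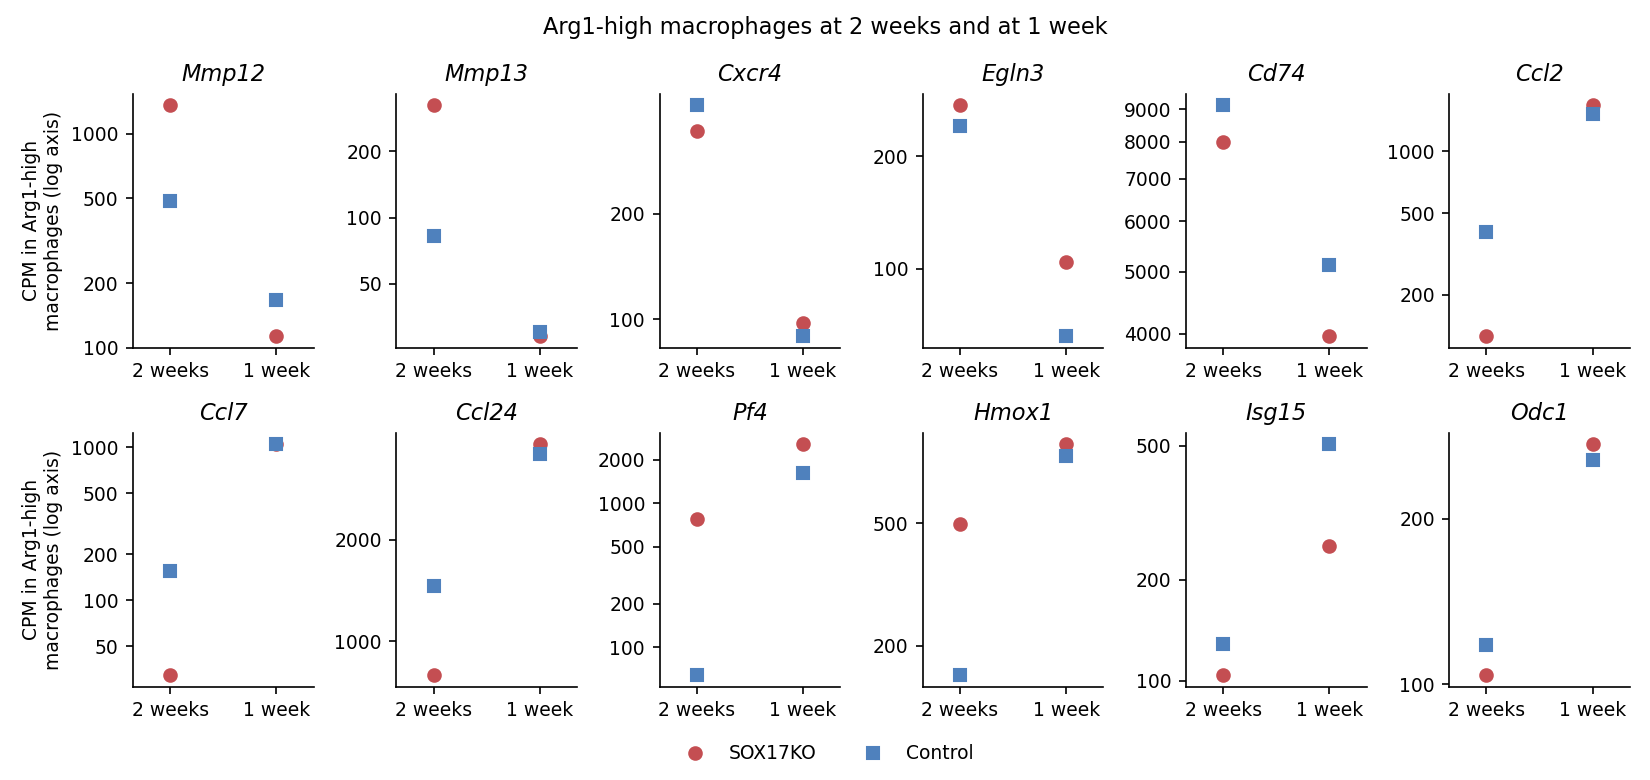
CPM on log axes of selected genes in Arg1-high macrophages at 2 weeks (left) and at 1 week (right), SOX17KO as red circles and Control as blue squares, 1 library each. Both genotypes lie higher at 2 weeks for Mmp12, Mmp13, Cxcr4, Egln3 and Cd74 and lower for the other genes. At 2 weeks Pf4 stands at 782 CPM in SOX17KO and 64.2 CPM in Control.

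Between genotypes, no gene passed in Arg1-high macrophages. With collection as a term, 0 of 9227 genes reached an edgeR adjusted p of 0.05 (0%), and the lowest adjusted p was 0.69. An unadjusted edgeR p below 0.05 was found for 302 genes, a smaller share of those tested than 0.05. DESeq2 also called 0. With 1 library per genotype and time and 1 residual degree of freedom, a missing call does not show that the genotypes were alike, and other scalings and filters called between 0 and 50 genes.

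No gene of the MHC and interferon lists was called. All 8 tested MHC class II genes had a negative log2 fold change, SOX17KO over Control, with a median of -0.28 against 0.00 over all genes. Of 22 class I presentation genes 21 were negative (median -0.26), and of 25 interferon-gamma genes 24 were negative (median -0.26, with -0.42 at 1 week and -0.07 at 2 weeks). The class II medians were -0.32 at 1 week and -0.24 at 2 weeks. H2-Ab1 had 2127 CPM in SOX17KO and 2576 in Control at 1 week, and 3767 in SOX17KO and 4393 in Control at 2 weeks. Some highly expressed genes were not lower at both times. The class II gene H2-Aa had 2280 CPM in SOX17KO and 2841 in Control at 1 week, but 4669 in SOX17KO and 4546 in Control at 2 weeks. The class I gene B2m had 2558 in SOX17KO and 3086 in Control, then 4165 in SOX17KO and 3997 in Control. Of 31 type I interferon genes 22 were negative and 9 positive, with medians of -0.41 at 1 week and 0.26 at 2 weeks. The hypoxia list had a median of 0.06, and Bnip3 differed by 0.11 ± 0.17.

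Some genes had the same direction in both collections, as did 52.5% of all 9227 tested genes, and passed under several alternatives. Those given here were chosen after their values were seen. Genes of other kinds were also among them: the dendritic cell gene Fscn1 (-3.66 ± 0.64) and the protease gene Ctsk (-3.19 ± 0.64) passed in 5 alternatives, and Retnla (2.59 ± 0.87) in 4. Socs1, a feedback inhibitor of interferon signalling, had 52.7 CPM in SOX17KO and 128 in Control members at 1 week, and 18.7 in SOX17KO and 46.4 in Control at 2 weeks (log2 fold change -1.29 ± 0.20, edgeR adjusted p = 0.69). Pdcd1lg2 had 165 CPM in SOX17KO and 304 in Control at 1 week, and 123 in SOX17KO and 228 in Control at 2 weeks (-0.90 ± 0.17, edgeR adjusted p = 0.77). Cxcl10 had 608 CPM in SOX17KO and 1113 in Control at 1 week, and 235 in SOX17KO and 412 in Control at 2 weeks (-0.85 ± 0.17, edgeR adjusted p = 0.77). In each pair the SOX17KO value was the lower. Pf4, a platelet factor chemokine also made by macrophages, ran the other way, with 2572 CPM in SOX17KO and 1611 in Control at 1 week, and 782 in SOX17KO and 64.2 in Control at 2 weeks, where 1 SOX17KO member held 69.7% of the Pf4 UMIs. Spp1 had 1204 CPM in SOX17KO and 1747 in Control at 1 week, and 262 in SOX17KO and 623 in Control at 2 weeks, given as a description of a marker.

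**Figure D5:**
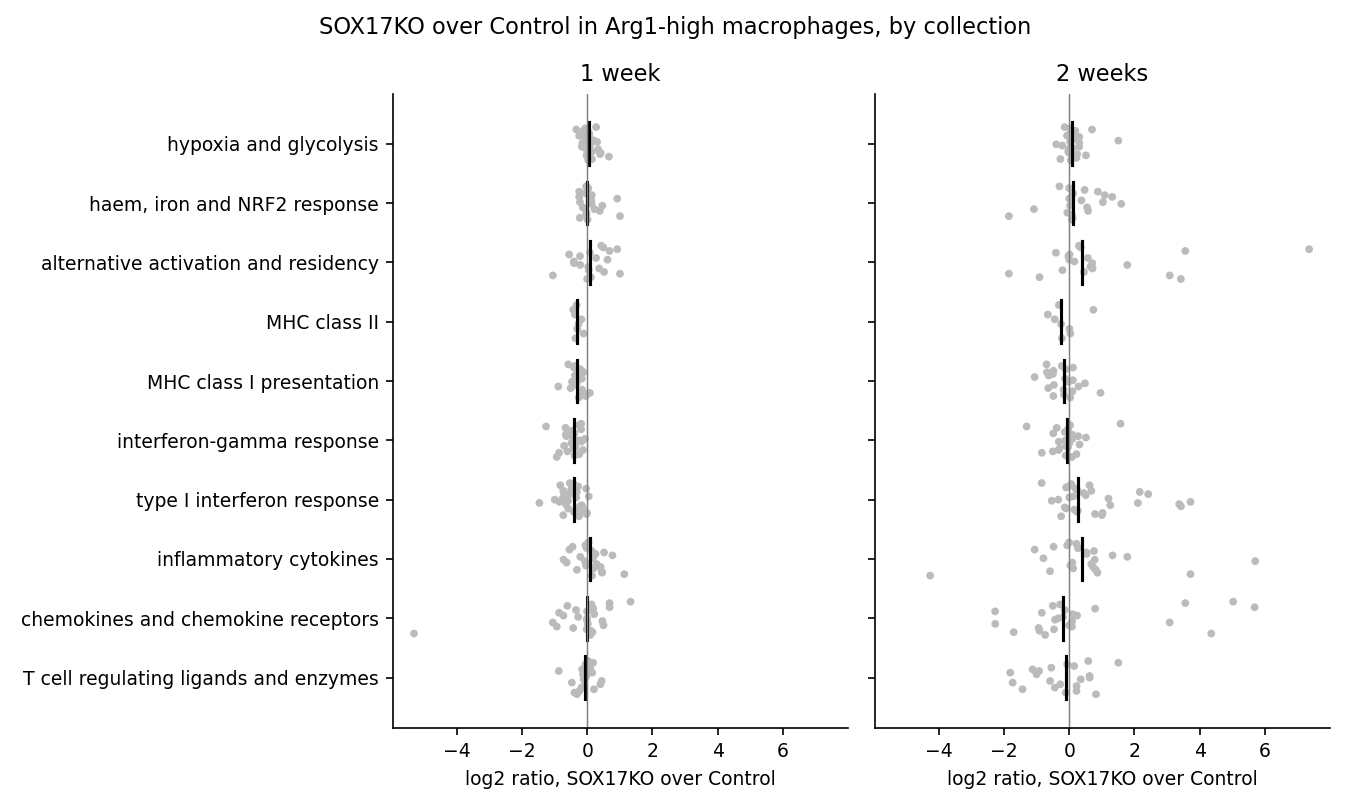
Log2 ratio of SOX17KO over Control in Arg1-high macrophages for each tested gene of 10 lists, at 1 week and at 2 weeks, from 1 library per genotype and time, with a black bar at each list's median and a prior count of 2. The 2-week points spread more widely than the 1-week ones, and their sums held fewer UMIs. The interferon-gamma medians are -0.42 at 1 week and -0.07 at 2 weeks, and the type I interferon medians are -0.41 and 0.26.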

How the data were processed

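The members and all gene lists were chosen with earlier results of these data known. The deposited values are raw UMI counts per gene and barcode, made by the authors with Cell Ranger 6.0.1 against mm10 per the submitters' processing notes, while the file headers name version 7.0.1. The handling of intronic reads and the annotation release are not given in the sources used here. Counts were used as deposited. Barcodes with at least 200 genes and at most 10% mitochondrial UMIs were kept, the gate was applied to raw UMIs, and counts were summed per library over members, Arg1-low macrophages and Ly6c2 monocytes, each with at least 20 cells. The sums were tested with edgeR 4.0.16 (TMM, filterByExpr, quasi-likelihood, Benjamini-Hochberg) in R 4.3.3, with DESeq2 1.42.0 as an alternative. Gate and mitochondrial genes stayed in the library sizes and left the tables before adjustment. CPM are per 1000000 UMIs of the sum. Tables were prepared with Python 3.11.15 and pandas 2.3.3, and the fits were tested on simulated data. The gene lists hold 456 genes in 27 lists, 9 of them markers of other cells, and 1 list gene was not matched. Doublet scores were computed and used only in an alternative. Single-pair log2 ratios use a prior count of 2. Thinning to a fixed number of UMIs left out cells with fewer. Named genes are the markers, the 10 called genes of largest absolute log2 fold change in each direction with a mean of at least 50 CPM and 1 sign in every pair, and up to 4 called genes per list, or the 2 of highest CPM where none was called. Further genes named were picked after their values were seen. Members' sums had between 560470 and 6757501 UMIs, and intervals cover counting error only. Alternatives were other scalings, filters, thresholds, gates and each library left out. Some items are not reported here.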

Additional observations from a re-analysis of the deposited data

Results flagged for a closer look

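Some values had opposite directions at 1 and at 2 weeks, and the difference between the times was not tested because each genotype had 1 library per time. The share of Arg1-high cells among gated macrophages differed between SOX17KO and Control by 0.32 on the log2 odds scale at 1 week and by -0.57 at 2 weeks. The ratio of CPM in SOX17KO over Control members was 0.724 at 1 week and 2.06 at 2 weeks for the arginine transporter gene Slc7a2, with exact 95% intervals of 0.668 to 0.784 and 1.71 to 2.48. It was 0.977 and 1.08 for the ferritin chain gene Fth1, 0.910 and 1.22 for the galectin gene Lgals3, 1.07 and 0.543 for the chemokine gene Ccl24, and 1.05 and 0.770 for the mannose receptor gene Mrc1. These intervals cover counting error only. The genes were picked from the named ones because their intervals excluded equality in opposite directions. Of all 9227 tested genes, 52.5% had the same direction in both collections.

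Arg1 at the members' threshold was also found outside the gate. Of the barcodes with the monocyte gene Ly6c2 that otherwise passed the gate, 24.1% in SOX17KO and 29.3% in Control at 1 week held at least 5 Arg1 UMIs, and 19.0% in SOX17KO and 20.3% in Control at 2 weeks. In T cells of the same libraries that share was 0.847, 3.90, 0.282 and 0.245%.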

How the results depend on the processing

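The number of genes called between genotypes was 0 and became 37 with RLE size factors, 50 without the expression filter, 7 with Arg1 of at least 10, 30 with at most 5% mitochondrial UMIs, 13 without high doublet scores and 8 without members that held UMIs of other lineages. It was 0 with DESeq2, with Arg1 of at least 3, without the collection term and with at least 10 members per sum. Between times the 164 calls became 612, 589, 280, 568, 481 and 327 under the first 6 of these settings, 392 with Arg1 of at least 3, 123 with DESeq2 and 204 without the genotype term. Leaving out a library left no residual degrees of freedom in both comparisons, so no count could be had. Against Arg1-low macrophages the calls ran from 485 to 812 with a library left out, the lowest without the 1-week Control library (488 without the 1-week SOX17KO one), and from 618 to 1198 otherwise. Against Ly6c2 monocytes they ran from 1003 to 2140 with a library left out and were 1330 without cells holding UMIs of other lineages.

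After thinning to 5000 UMIs, which left out shallower cells, the log2 odds difference among macrophages was 0.21, and the untimed pair held no member. It ran from -1.44 to -0.12 with a collection left out, the last without the untimed pair. Among barcodes it was 0.71 after thinning and ran from -0.99 to 0.26, again without that pair. Gpnmb at 2 weeks against 1 week was -2.66 without cells holding UMIs of other lineages, against 1.54. Pf4 between genotypes passed in 5 settings (highest edgeR adjusted p 0.018). Against Arg1-low macrophages Hmox1 lost its call in 4 settings, and Calr, Ifit3, H2-DMb2, Gpnmb and Cd40 in 4 to 8. Between times Mmp12, Mmp13 and Gclm lost their calls with DESeq2, and S100a9 with DESeq2 and with Arg1 of at least 3. Pf4, Ass1 and Hmox1 lost theirs with DESeq2 and without the genotype term, and Cxcl10 without that term. Slc7a11 and Tnf lost theirs without cells holding UMIs of other lineages. The cause was not tested in any of these. The fits already hold a term for the collection, genotype or library, and shares were compared within collections. The 2-week sums, of 587274 and 560470 UMIs, limit what low genes can show.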

Other observations

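The gate takes in only part of the cells with Arg1. Of 3681 barcodes with at least 5 Arg1 UMIs in the 6 libraries, 1526 were members, 955 were Ly6c2 monocytes and 1200 were other barcodes. In the timed libraries 725 of the others had fewer than 3 UMIs of the macrophage genes.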
